A study of Mus musculus with 2 samples.

Results

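The 10 genes described here encode the liver enzymes that turn cholesterol into conjugated bile acids: the sterol hydroxylases Cyp7a1, Cyp27a1, Cyp7b1, Cyp39a1 and Cyp8b1, the nucleus-modifying enzymes Hsd3b7 and Akr1d1, the peroxisomal enzymes Amacr and Acox2, and the conjugating enzyme Baat. They were taken by gene symbol from the 13326 symbols of the deposited expression tables, and each symbol stood in 1 row. Liver RNA came from 12-week-old male C57BL/6J mice fasted overnight, either wild type or Adipoq-/-, a genotype that lacks the adipocyte hormone adiponectin. RNA of 9 to 10 mice was pooled into 1 library per genotype, so the comparison holds 2 libraries and has no measure of the spread between animals. The study asked which liver genes of glucose and lipid metabolism respond to adiponectin. Adipoq itself was not analysed here, and the labels stand without a check of the missing gene.

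Bile acids are made from cholesterol in hepatocytes and serve as detergents for dietary fat and as ligands of nuclear receptors. In the classical route Cyp7a1 hydroxylates cholesterol first, and in the alternative route Cyp27a1 and Cyp7b1 act on the side chain and then on the resulting oxysterol. Cyp8b1 diverts intermediates to cholic acid, and in mice much of the remainder becomes muricholic acid.

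Values are FPKM, fragments scaled to the length of the transcript and to the mapped total, so levels can be compared between genes of different length. A difference is given as log2((knockout FPKM + 1) / (wild-type FPKM + 1)), which shrinks the ratios of weakly expressed genes. Over the 11985 genes with at least 1 FPKM in a library the median ratio was -0.15, and the relative log2 ratio is the ratio minus that median. A gene at least 1.5-fold from the all-gene median, a relative log2 ratio of 0.58 or more in size, is counted as higher or lower. Summed FPKM came to 798231 (wild type) and 892016 (knockout). The number of reads behind a value is unknown. Across genes the ratio also moved with transcript length (Spearman rho -0.44 over 11571 genes, which are not independent replicates). All 10 hepatocyte markers were well above the minimum in both libraries and none was 1.5-fold apart.

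Of the 10 enzymes, 1 was at least 1.5-fold lower in the knockout library (Cyp8b1), 1 was at least 1.5-fold higher (Cyp7b1), and 8 lay between these limits. Over all genes, 2.61% were lower by this measure and 6.73% were higher. Among the 4991 genes that average at least 10 FPKM, as 9 of the 10 enzymes do, the shares were 1.92% and 9.6%. A count of 1 of 10 in each direction does not set the enzymes apart from that background. After correction for transcript length Cyp8b1 was at -0.71 and Cyp7b1 at 0.89, and again no other enzyme passed 1.5-fold, where 2.73% of all genes were lower and 2.97% higher. The median relative log2 ratio of the 10 enzymes was -0.12, and 6 of 10 lay below the all-gene median, where by construction 50% of all genes lie. On the values as deposited 8 of 10 were lower in the knockout library, where 66.9% of all genes were. On that scale Cyp8b1 and Cyp7b1 were again the enzymes past 1.5-fold, beside 6.17% of all genes lower and 3.23% higher.

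**Figure D1:**
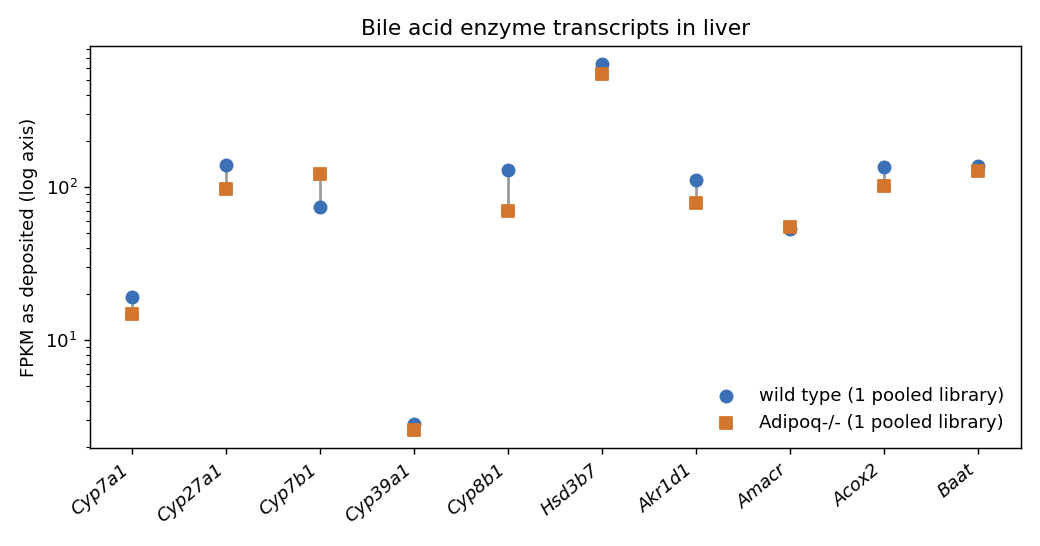
FPKM as deposited (log axis) of the 10 enzymes in the wild-type library (circles) and the Adipoq-/- library (squares), each a single pooled library. Cyp7b1 is higher in the knockout library (122 against 74.3 FPKM), and Cyp8b1 shows the widest fold gap in the other direction (69.4 against 129 FPKM).

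Cyp8b1 encodes the hydroxylase that commits intermediates to cholic acid. Its level was 129 FPKM in wild type and 69.4 FPKM in the knockout library, 1.86-fold apart as deposited. Its relative log2 ratio was -0.74, and 1.17% of all genes had a lower ratio. Cyp8b1 lies on chromosome 9 and is a gene of 1 exon in the GENCODE M21 annotation, and no stretch of 36 bases in its transcript occurs in a transcript of another gene. The read length is not known here.

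Cyp7b1, on chromosome 3, encodes the oxysterol hydroxylase of the alternative route, and its expression in mouse liver is known to be higher in males than in females. Its level was 74.3 FPKM in wild type and 122 FPKM in the knockout library, 1.64-fold higher as deposited. Its relative log2 ratio was 0.85, and 98.3% of all genes had a lower ratio. With the libraries rescaled to equal summed FPKM the log2 ratio was 0.54, short of 1.5-fold. Cyp7a1 and Cyp7b1 belong to the same cytochrome P450 family, but the longest run of bases their transcripts share is 15, and no 36-base stretch of Cyp7b1 occurs in another gene.

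The order of levels differed between the libraries, with moves of 2 or more places for Cyp7b1, Cyp27a1 and Cyp8b1. In the wild-type library Cyp8b1 was the fifth and Cyp7b1 the seventh most abundant of the 10 enzymes. In the knockout library Cyp7b1 was the third and Cyp8b1 the seventh. Cyp27a1, Baat, Acox2 and Cyp8b1 lay within 129 to 140.1 FPKM in wild type, and with no spread to judge by, neighbours so close cannot be ranked. The ratio of Cyp8b1 to Cyp7b1 within a library, from which any factor shared by the whole library drops out, was 1.74 in wild type and 0.571 in the knockout, a 3.05-fold difference. Of the 45 pairs that the 10 enzymes form, this was the widest shift. That follows from Cyp8b1 having the lowest and Cyp7b1 the highest ratio of the 10. The within-library ratio differed by 1.5-fold or more between libraries for 13 pairs, of which 9 held Cyp7b1 and the other 4 held Cyp8b1. Among the other 8 enzymes no ratio differed by more than 1.46-fold.

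**Figure D2:**
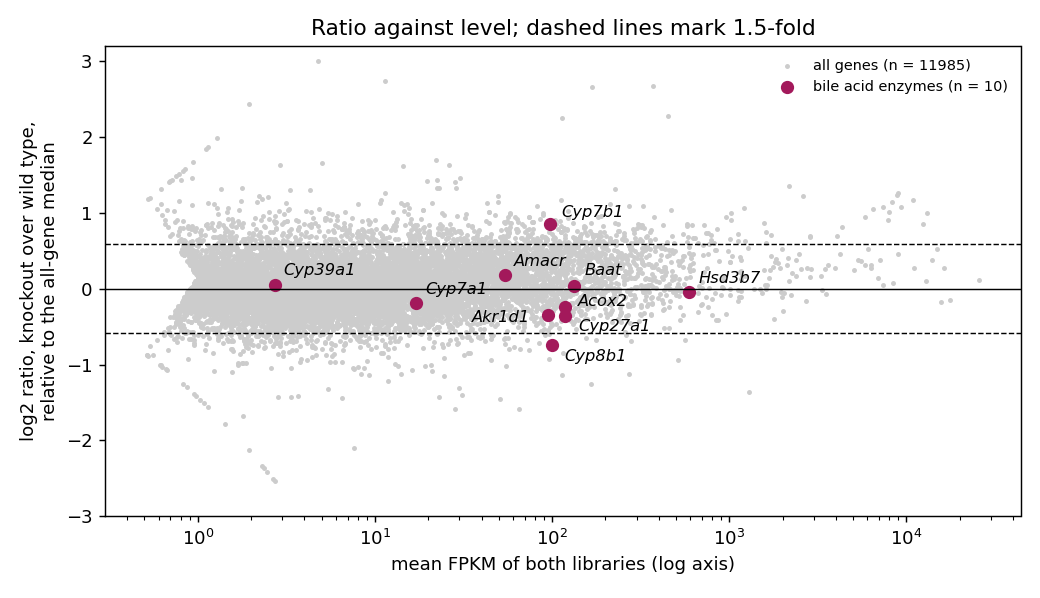
Relative log2 ratio of knockout over wild type against the mean FPKM of both libraries (log axis), with all 11985 genes in grey (3 lie outside the plotted range) and the 10 enzymes in colour. Cyp7b1 (0.85) and Cyp8b1 (-0.74) lie outside the dashed 1.5-fold lines, and the other 8 enzymes lie between them.

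The hydroxylases that open the pathway were measured at very different levels. Cyp7a1, the rate-limiting enzyme of the classical route, on chromosome 4, measured 19.2 FPKM in wild type and 14.9 FPKM in the knockout library. Its relative log2 ratio was -0.19, and 23.5% of all genes had a lower one. Cyp27a1, on chromosome 1, encodes the mitochondrial sterol hydroxylase that starts the alternative route and also oxidises the side chain in the classical one. It was at 140.1 and 97.6 FPKM, with a relative log2 ratio of -0.36, and moved from the second to the fifth place among the 10 enzymes. Cyp39a1, which hydroxylates the oxysterol made mainly in brain and lies on chromosome 17, was the least abundant at 2.84 and 2.59 FPKM. Its relative log2 ratio was 0.05 and its ratio as deposited -0.10, so its direction depends on the scaling.

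Expressed as shares of the summed FPKM of these 5 hydroxylases, Cyp7b1 made up 20.3% in wild type and 39.7% in the knockout. Cyp8b1 made up 35.3% and 22.7%, and Cyp27a1 38.3% and 31.9%. Cyp7a1 held 5.24% and 4.87%. The sum itself was 366 FPKM in the wild-type and 306 FPKM in the knockout library. Cyp7b1 relative to Cyp27a1, the enzyme before it in the alternative route, was 0.530 in wild type and 1.24 in the knockout. Cyp7a1 relative to Cyp27a1 was 0.137 and 0.153. Cyp8b1 relative to Cyp7a1 was 6.74 and 4.66.

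**Figure D3:**
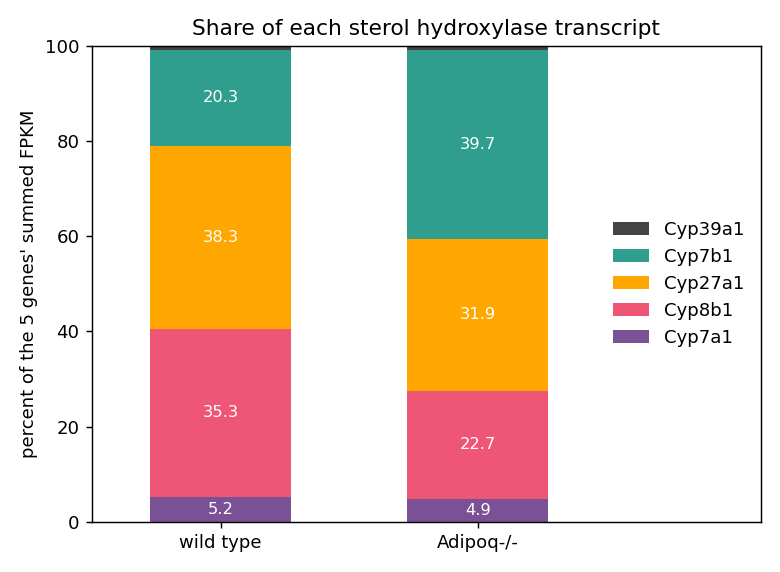
Percent of the summed FPKM of the 5 sterol hydroxylases that each gene holds for wild type (left) and Adipoq-/- (right). The Cyp7b1 segment is 20.3% on the left and 39.7% on the right, Cyp8b1 35.3% and 22.7%, and Cyp7a1 5.24% and 4.87%.

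The enzymes that modify the sterol nucleus differed less. Hsd3b7, on chromosome 7, encodes the dehydrogenase that acts after Cyp7a1 in the classical route and after Cyp7b1 in the alternative one. It was by far the most abundant of the 10, at 636 FPKM in the wild-type and 553 FPKM in the knockout library, and held 44.2% and 45.2% of their summed FPKM. Its relative log2 ratio was -0.05. In GENCODE M21, 93.9% of the 36-base stretches of the Hsd3b7 transcript also lie in the gene model Gm49388 and 34.6% in 9430064I24Rik, neither of which is listed in the files, so how reads were divided there is uncertain. Akr1d1, on chromosome 6, encodes the reductase that sets the bent shape of the bile acid nucleus. It was at 111 and 78.6 FPKM, with a relative log2 ratio of -0.35, and 10.2% of all genes had a lower ratio.

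Shortening of the side chain takes place in peroxisomes. Acox2, the oxidase of branched-chain bile acid precursors, on chromosome 14, was at 135 FPKM in the wild-type and 102 FPKM in the knockout library, with a relative log2 ratio of -0.25. Amacr, the racemase that supplies Acox2 with the right isomer, on chromosome 15, was at 53.4 and 54.5 FPKM. Its relative log2 ratio was 0.18, and its ratio was -0.13 with equal summed FPKM. Baat, on chromosome 4, joins finished bile acids to taurine or glycine. It was at 138 and 128 FPKM, with a relative log2 ratio of 0.04 and a ratio as deposited of -0.11. Relative to Slc27a5, the ligase that prepares bile acids for Baat, it was 0.255 and 0.277 within the libraries.

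Promoter sequences were available for 5 of the 10 enzymes in the RefSeq table (build GRCm38.p6). The files were made on another build, so these windows are shown for their letters and not joined to the expression tables by position. The 250 bases before the transcription start were searched on both strands for CAAAGTCCA, a motif of the hepatocyte receptor HNF4A, for AGGTCA, the half-site of many nuclear receptors, for TCAAGGTCA, the motif of NR5A2 (which contains AGGTCA), and for the TATA box TATAAA. The windows of Cyp8b1 (lowest of the 10), Akr1d1 (with 2 half-sites) and Cyp2c70, the mouse enzyme that makes muricholic acid and the only higher gene among the other sterol hydroxylases below, are shown with matches in capitals. They are the 250 bases at chr9:121916306-121916555 (minus strand), chr6:37529923-37530172 (plus strand) and chr19:40187287-40187536 (minus strand), each written 5′ to 3′ on the strand of its gene.
Cyp8b1: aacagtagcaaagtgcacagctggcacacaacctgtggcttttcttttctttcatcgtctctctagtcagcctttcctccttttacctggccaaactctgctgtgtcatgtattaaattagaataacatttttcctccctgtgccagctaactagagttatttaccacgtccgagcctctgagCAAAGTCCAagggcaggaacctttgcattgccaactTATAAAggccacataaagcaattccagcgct
Akr1d1: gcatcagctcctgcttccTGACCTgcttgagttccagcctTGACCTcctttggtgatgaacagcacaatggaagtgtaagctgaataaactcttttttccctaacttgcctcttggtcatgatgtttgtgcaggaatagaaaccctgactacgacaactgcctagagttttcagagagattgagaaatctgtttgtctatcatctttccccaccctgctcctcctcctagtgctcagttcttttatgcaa
Cyp2c70: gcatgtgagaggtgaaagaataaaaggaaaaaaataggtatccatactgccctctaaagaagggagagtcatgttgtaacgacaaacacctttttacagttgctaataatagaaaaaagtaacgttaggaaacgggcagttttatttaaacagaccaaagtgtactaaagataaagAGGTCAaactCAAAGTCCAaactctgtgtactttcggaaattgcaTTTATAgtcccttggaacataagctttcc

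CAAAGTCCA was found in the Cyp8b1 window at -67 to -59 and in the Cyp2c70 window at -64 to -56, both on the strand of the gene, where -1 is the base before the start. It occurs in 0.384% of the 32851 promoter windows of the table. These distances are counted from the RefSeq start. The GENCODE M21 model of Cyp2c70 starts at 40187333, inside its window, so distances for this gene depend on the annotation. Whether the motif bears on the level of either gene was not tested. TATAAA was found at -31 in Cyp8b1 and, on the opposite strand, at -29 in Cyp2c70, and it occurs in 12.4% of windows. AGGTCA was found on the opposite strand at -232 and -210 in Akr1d1 and on the strand of the gene at -74 in Cyp2c70, and it occurs in 14% of windows. TCAAGGTCA occurs in 0.387% of windows and was not matched in these 3. The windows of Cyp27a1, Hsd3b7 and Acox2 held none of the 4 motifs. Such matches describe letters, not binding.

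Other enzymes of the pathway were read against the same limits. Of 10 side-chain and activation genes none was 1.5-fold apart, 8 lay below the all-gene median, and the list median was -0.21. The peroxisomal importer of bile acid precursors, Abcd3, was farthest from 0 at 281 and 191 FPKM (relative log2 ratio -0.40). The peroxisomal enzymes Hsd17b4 (248 and 180.1 FPKM, -0.31) and Scp2 (3007 and 2424 FPKM, -0.16) and the ligase Slc27a5 (541 and 460 FPKM, -0.08) were closer. Of 3 other sterol hydroxylases past the minimum, 1 was higher and none lower. This was Cyp2c70, at 258 FPKM in the wild-type and 406 FPKM in the knockout library, with a relative log2 ratio of 0.81. Cyp2c70 relative to Cyp7b1 was 3.47 in wild type and 3.34 in the knockout, and relative to Cyp8b1 it was 1.995 and 5.86. These ratios restate the differences of the single genes, and whether any of the genes vary together was not tested.

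None of 21 genes for bile acid sensing and regulation past the minimum was 1.5-fold apart, and 18 lay below the all-gene median (list median -0.18). The bile acid receptor Nr1h4 was at 38.8 FPKM in the wild-type and 31.5 FPKM in the knockout library (relative log2 ratio -0.14). The repressor Nr0b2, a target of Nr1h4 that restrains Cyp7a1 and Cyp8b1, was at 27.4 and 21.9 FPKM (-0.15). Nr5a2, an activator of Cyp8b1, was at 7.06 and 5.22 FPKM (-0.22), and Hnf4a at 91.0 and 71.9 FPKM (-0.18). Fgfr4, the receptor for the intestinal hormone that lowers bile acid synthesis, was at 13.3 and 8.95 FPKM (-0.38), and its partner Klb at 5.65 and 4.78 FPKM (-0.05). The xenobiotic receptor Nr1i3 had the lowest ratio of the list, at 43.2 and 26.1 FPKM (-0.55). On the values as deposited Nr1i3 was past 1.5-fold, at -0.70.

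**Figure D4:**
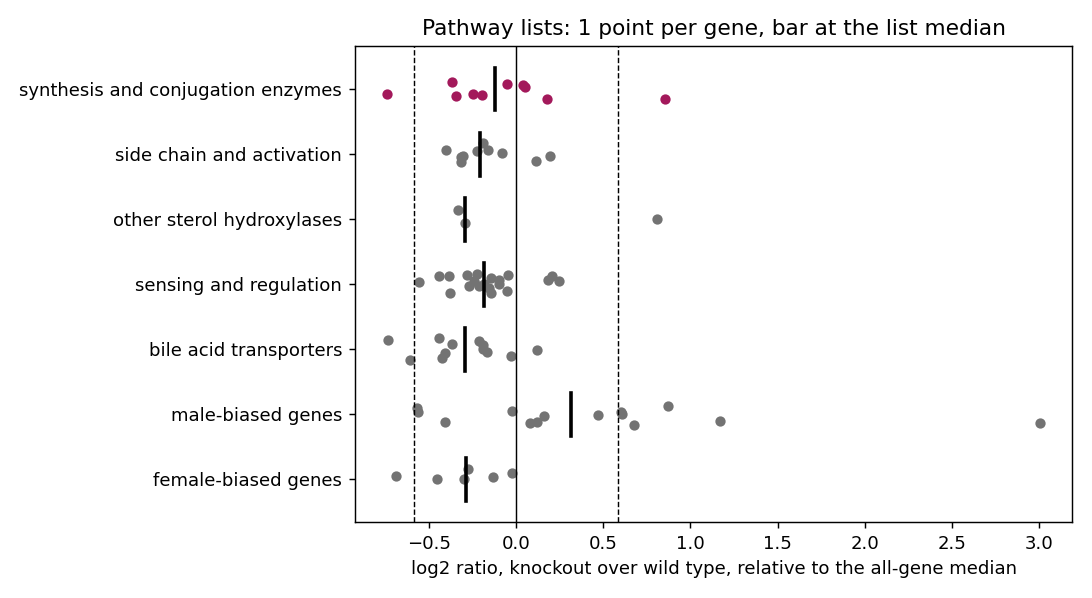
Relative log2 ratio of knockout over wild type for each gene past 1 FPKM in 7 lists, with a bar at each list's median and dashed lines at 1.5-fold. The 10 enzymes span -0.74 to 0.85, wider than the regulators (-0.55 to 0.25).

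Of 12 bile acid transporters and related genes past the minimum, 2 were at least 1.5-fold lower and none higher, with a list median of -0.29, where 2.61% of all genes were lower. They were the basolateral carriers Slco1a4 (15.1 and 7.74 FPKM, -0.73) and Abcc3 (58.5 and 34.2 FPKM, -0.60). After length correction Slco1a4 (-0.65) was past 1.5-fold and Abcc3 (-0.47) was not, while as deposited Ephx1 (295 and 195 FPKM) joined them, for a count of 3. The canalicular bile salt pump Abcb11 was at 157 and 124 FPKM (-0.19), and the uptake carrier Slc10a1 at 308 and 215 FPKM (-0.37).

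Because Cyp7b1 is male-biased, it was set beside other sex-biased liver genes. Of 14 male-biased genes, 6 were at least 1.5-fold higher and none was lower, with a list median of 0.32, where 6.73% of all genes were higher. The list was chosen with earlier results of these data known, so its count is not a test against that share. The count also depends on the scale. On the values as deposited 3 were higher (Moxd1, Mup20 and Serpina12) and 2 lower (Cyp4a12a and Cyp4a12b), with a median of 0.16. On that scale 3.23% of all genes were higher and 6.17% lower. After length correction 5 were higher, without Hsd3b5, beside 2.97% of all genes. Moxd1 passed the minimum through the knockout library alone, and over the 13 genes at 1 FPKM or more in both libraries 5 were higher, with a median of 0.16. On the relative scale the higher ones were Moxd1 (0.408 and 9.16 FPKM, 3.003), Mup20 (7180 and 14550.1 FPKM, 1.17), Serpina12 (43.5 and 72.4 FPKM, 0.87), C8b (140 and 201 FPKM, 0.68), Nudt7 (689 and 945 FPKM, 0.61) and Hsd3b5 (125 and 171 FPKM, 0.60). The male-biased Cyp4a12a (108 and 65.7 FPKM, -0.56) and Elovl3 (188 and 127 FPKM, -0.40) had ratios on the other side of 0. Mup20 and Cyp4a12a have close paralogs, so the division of reads among copies is uncertain for them. Of 6 measured female-biased genes, all lay below the all-gene median and 1, Abcd2 (4.52 and 2.08 FPKM, -0.69), was at least 1.5-fold lower. By this measure 2.61% of all genes were lower. After length correction Abcd2 was at -0.58, just short of the limit, which left a count of 0, beside 2.73% of all genes. As deposited Acot3 (1.12 and 0.396 FPKM) was lower as well, beside 6.17% of all genes. Acot3 passed the minimum through the wild-type library alone. Over the 5 genes at 1 FPKM or more in both libraries, only Abcd2 was lower as deposited. Whether Cyp7b1 follows these genes was not tested.

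Other cells in the tissue were checked through their markers. Of 11 Kupffer cell markers, 9 lay above the all-gene median and 1 (Marco, 1.26 and 3.72 FPKM) was at least 1.5-fold higher, where 6.73% of all genes were. After length correction 2 were higher, Marco and Emr1, beside 2.97% of all genes. The summed FPKM of the 11 markers was 194 in wild type and 201 in the knockout. All 10 endothelial markers were past the minimum, with a sum of 86.8 and 92.6 FPKM. Of 10 stellate cell markers 8 had values, and all 8 were past the minimum, with 204 and 197 FPKM. None of these endothelial and stellate cell markers was 1.5-fold apart. Of 8 cholangiocyte markers 4 had values. All 4 were past the minimum, with 20.5 and 27.5 FPKM in sum, and 1 of them, Spp1, was higher. Of 8 lymphocyte markers 3 had values, and the 2 past the minimum summed to 3.53 and 2.81 FPKM. Of 7 adipocyte markers, 4 had values and were past the minimum, with a sum of 32.0 and 16.8 FPKM. Cfd (13.3 and 2.01 FPKM) and Cidec (4.73 and 0.913 FPKM, past the minimum in wild type alone) were at least 1.5-fold lower. Over all genes 2.61% were lower. Fabp4 (9.61 and 10.95 FPKM, relative log2 ratio 0.32) and Lipe (4.41 and 2.91 FPKM, -0.32) were not 1.5-fold apart. Plin1, Lep and Retn, which define adipocytes, were listed but had no values in the data used here. The part of these cells in the enzyme values was not tested. In bulk tissue, fewer hepatocytes and less RNA per hepatocyte cannot be told apart.

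**Figure D5:**
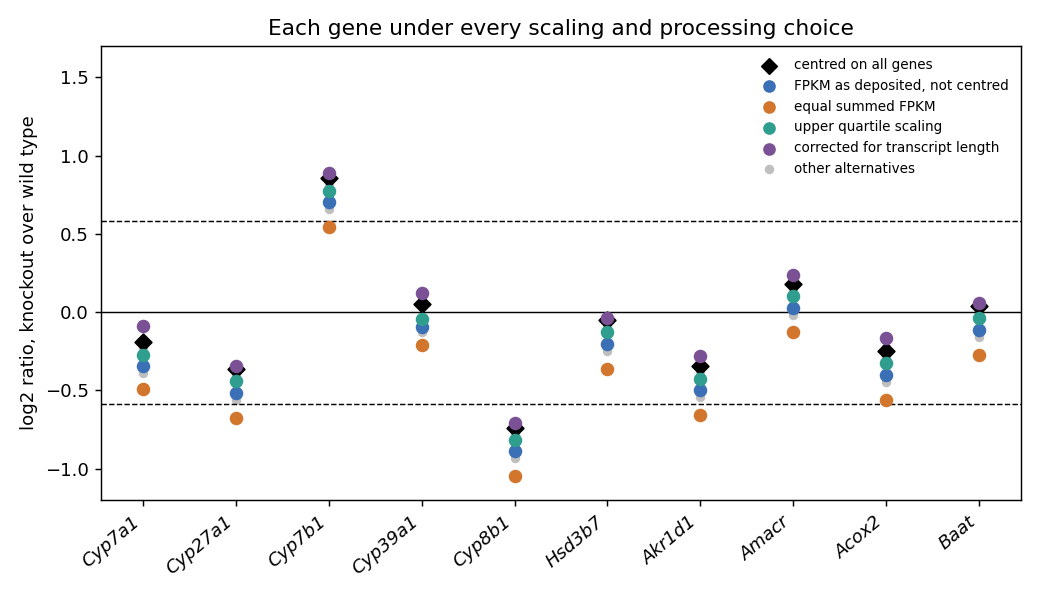
Log2 ratio of knockout over wild type for each enzyme under the scaling centred on all genes (diamonds) and 11 alternatives (circles), with dashed lines at 1.5-fold. Cyp8b1 is below the lower line under all of them (-1.05 to -0.71), and Cyp7b1 is above the upper line under all but equal summed FPKM (0.54).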

How the data were processed

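Liver mRNA libraries, 1 per genotype, were sequenced on an Illumina Genome Analyzer II, per the labels' protocols. The deposited values are FPKM, 1 per gene symbol, made by the authors with TopHat and Cuffdiff on mm9 and NCBIM37, per the submitters' processing notes. Program roles and versions, the annotation and any row filter were not given in the sources used here.

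Both tables hold the same 13352 rows, and of each of 26 symbols listed in 2 rows the more abundant row was used. Ratios used a pseudocount of 1 FPKM and a minimum of 1 FPKM in at least 1 library. With 1 library per genotype no p-value was computed. Symbols that the files lack were matched through RefSeq synonyms. Transcript lengths (longest coding transcript) and shared 36-base stretches came from GENCODE M21, and promoters from RefSeq. The length correction used a running median of 501 genes and was tested on simulated data, as was the ratio. All 10 enzymes are named, with every list gene past 1.5-fold (at most 6) and preset hallmark genes. The motifs and the shown sequences were picked after values were seen. The members and lists were chosen with earlier results of these data known. Some list genes are not reported here. Alternatives were other pseudocounts, minimums and scalings. Python 3.11.15 and pandas 2.3.3 were used.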

Additional observations from a re-analysis of the deposited data

How the results depend on the processing

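With no replicates, the limit on every value is that the spread between animals and between libraries is unknown, and depth is unknown as well. Cyp8b1 stayed at least 1.5-fold lower under all 11 alternatives, which included pseudocounts of 0.1 and 0.5 FPKM, no minimum, a minimum of 5 FPKM, 5 other scalings, the length correction, and the lower row for symbols in 2 rows. Cyp7b1 stayed at least 1.5-fold higher under 10 and had a log2 ratio of 0.54 with equal summed FPKM. That scaling moved the all-gene median to -0.28, put 3 enzymes at least 1.5-fold lower (Cyp27a1 at -0.67 and Akr1d1 at -0.66 besides Cyp8b1) and 0 higher, and left a median of -0.43 for the 10 enzymes. Beside it, 12.5% of all genes were lower and 1.52% higher. The median of the enzymes was -0.23 with a minimum of 5 FPKM, which removes Cyp39a1, -0.27 as deposited, and -0.32 with equal summed FPKM after leaving out Mup genes, an alternative chosen after seeing the data, as were the counts of the other lists on other scales. As deposited, 6.17% of all genes were at least 1.5-fold lower and 3.23% higher. With a pseudocount of 0.1 FPKM these shares were 5.9% and 9.52%, counted relative to the all-gene median. Baat, Cyp39a1 and Amacr changed sign between scalings, within 1.5-fold. The within-library ratios hardly moved when 1 FPKM was added to each value. No paired analysis was possible because each genotype has 1 library.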

Other observations

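Genes that supply the enzymes with electrons, sterols and taurine were not part of the comparisons above. Of 8 genes for electron donors and sterol delivery, none was 1.5-fold apart and the list median was -0.08. The microsomal P450 reductase Por was at 104 FPKM in the wild-type and 80.7 FPKM in the knockout library (relative log2 ratio -0.22). The mitochondrial electron donor Fdx1, which serves Cyp27a1, was at 75.3 and 82.6 FPKM (0.28), and its reductase Fdxr at 7.05 and 5.53 FPKM (-0.15). All 4 genes of taurine supply lay below the all-gene median, none by 1.5-fold. Csad, which decarboxylates cysteine sulfinate on the way to taurine, was at 128 and 82.9 FPKM (-0.47, and -0.62 as deposited, which is past 1.5-fold), and the dioxygenase Cdo1 at 471 and 371 FPKM (-0.19).

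Slc10a2, best known as the bile acid carrier of the ileum, was listed at 14.2 FPKM in the wild-type and 13.1 FPKM in the knockout library. The cholangiocyte marker Spp1 was at 13.4 and 21.01 FPKM (0.76).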
